A study of Homo sapiens with 8 samples.

Results

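The TNF ligand and receptor superfamily was examined as the protein-coding genes named TNF, LTA, LTB, LTBR, or by a TNFSF or TNFRSF number, and 36 of the 60558 genes measured (19957 of them protein-coding) met that rule. They comprised 15 ligand genes, 5 receptors with a death domain, 4 decoy or soluble receptors and 12 other receptors. RNA was sequenced from 2D human intestinal epithelial cells (hIECs) differentiated from H9, a human embryonic stem cell line, in 8 libraries. Normal hIECs received neither agent, and 2 libraries were made from them. Normal hIECs with PM10, a coarse particulate matter applied here as a reference dust, received 100 µg/ml for the last 7 days (2 libraries). Inflamed hIECs received IFNγ and TNFα at 50 ng/ml each for 10 days (2 libraries), and inflamed hIECs with PM10 received both cytokines and the dust (2 libraries). Doses and days are those of the study's methods, while the labels give 10 days of treatment for all 8 libraries, normal hIECs included. All groups came from 1 cell line, and the labels do not say whether the 2 libraries of a group came from separate cultures, so p-values measure the spread between these libraries, which may be technical.

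Ligands of this superfamily are mostly trimeric membrane proteins that can be shed, and they bind receptors with cysteine-rich repeats. Receptors with a death domain can recruit adaptors that start caspase-driven cell death, most of the others recruit TRAF adaptors that switch on NF-κB and MAP kinases, and decoy or soluble receptors bind ligand without passing on such a signal. In the gut, TNF is a target of therapy in inflammatory bowel disease. The comparisons asked how the genes for this system differed with cytokines, with PM10 and with both.

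The labelled cell type was checked against its markers. Of 12 intestinal epithelial markers, CDX2, CHGA, LYZ, MUC2 and VIL1 were listed at 0 in all 8 libraries, CDH1 was listed at 0 in all but 1, EPCAM did not pass 0.622 FPKM, and KRT8 and KRT18 made up most of the summed level. The summed level of these 12 ran from 658 to 667 FPKM in normal hIECs, 614 to 651 with PM10, 356 to 361 in inflamed hIECs and 299 to 317 in inflamed hIECs with PM10. None of 10 mesenchymal markers was under 1 FPKM throughout, and their sum ran from 5067 to 5079, 4392 to 4418, 5772 to 5846 and 5101 to 5119 FPKM in the same groups. Both sums hold changes in opposite directions. KRT8, KRT18 and SOX9 passed the test as lower with cytokines, while LGR5 was higher (means 2.32 FPKM in normal and 5.47 in inflamed hIECs). Of the 10 mesenchymal markers, 5 passed as higher and 3 as lower with cytokines without PM10, where 25.9% and 30.3% of all genes did. All 4 endothelial markers were listed at 0, and the immune markers CD3E, CD14 and ITGAM were too; the 8 immune markers summed to between 0.333 and 1.83 FPKM in any library. Of the neuronal markers, ELAVL3 and ELAVL4 were listed at 0 in all 8 libraries, and STMN2 and TUBB3 passed the test as lower with cytokines both without and with PM10. ELAVL3, ELAVL4, STMN2 and TUBB3 summed to between 175 and 181 FPKM in normal hIECs, 191 and 198 with PM10, 101 and 103 in inflamed hIECs, and 118 and 121 with both. In such bulk libraries fewer cells of a type and less RNA per cell cannot be told apart, and the part of these markers in the results that follow was not tested.

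The values are FPKM, which count fragments relative to transcript length and library size, so they can be compared between genes. No value above 0 was lower than 0.164 to 0.228 FPKM, depending on the library, and a gene listed at 0 may lie anywhere under that limit. TNFRSF12A, the receptor of the ligand TWEAK, had the highest level in each of the 8 libraries, between 68.0 and 170 FPKM. TNFRSF1A and TNFRSF10B came next, followed by TNFRSF10D in the groups without cytokines. Summed over the 15 ligand genes, the level was 9.27 and 9.02 FPKM in normal hIECs, 6.88 and 7.76 with PM10, 43.8 and 41.6 in inflamed hIECs, and 40.5 and 38.4 with both. The 21 receptor genes summed to 189 and 179, 222 and 222, 305 and 304, and 362 and 355 FPKM in the same order. Ligand transcripts were thus a small share of the receptor total, and both sums were higher in every library with cytokines than in any without.

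**Figure D1:**
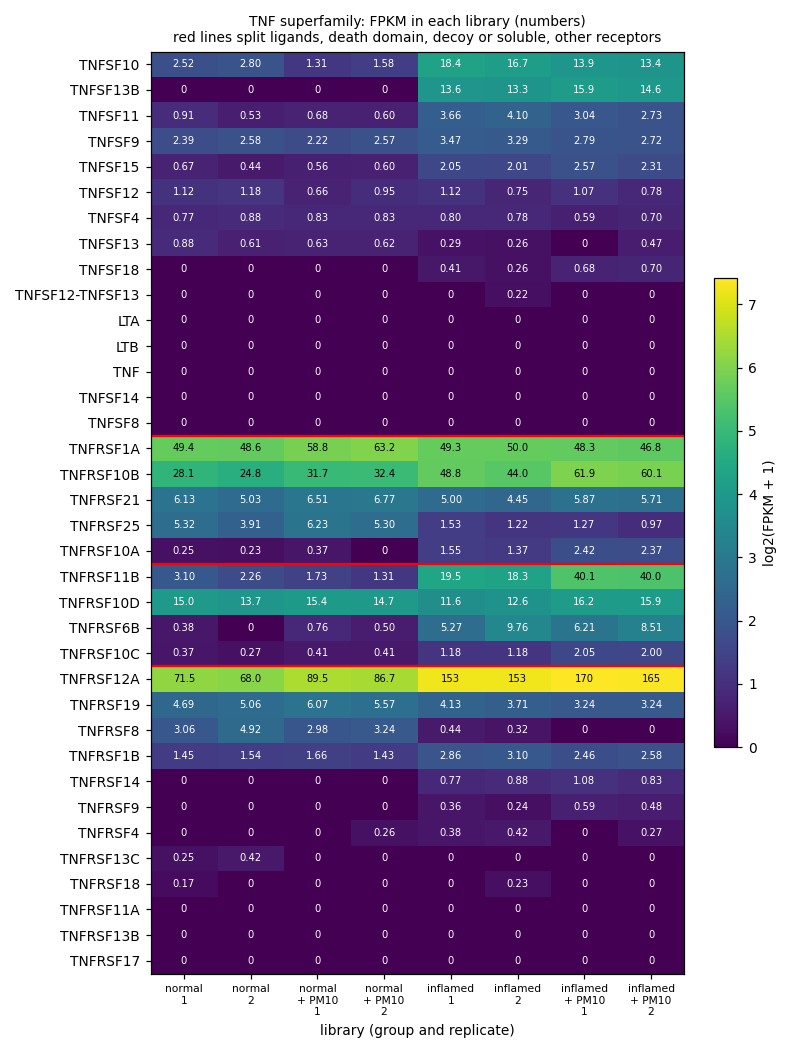
FPKM of the 36 superfamily genes (rows, ordered by role and by highest level) in the 8 libraries (columns), with colour giving log2(FPKM + 1) and the printed number the FPKM. TNFRSF12A runs from 68.0 to 170 FPKM, TNFSF13B is listed at 0 in the 4 libraries without cytokines, and 8 rows are listed at 0 throughout.

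Of the 36 genes, 19 reached 1 FPKM in 2 or more libraries and were tested. The other 17 included 8 listed at 0 in all 8 libraries: the ligand genes TNF, LTA, LTB, TNFSF8 and TNFSF14, and the receptor genes TNFRSF11A, TNFRSF13B and TNFRSF17. TNF itself was therefore below the lowest reported value also in the 4 libraries whose medium contained TNFα protein. TNFRSF11A encodes RANK, the signaling receptor of TNFSF11, while TNFRSF13B and TNFRSF17 encode TACI and BCMA, receptors found mainly on B cells and plasma cells. The other 9 genes that were not tested were above 0 somewhere: TNFSF4 (0.587 to 0.880 FPKM), TNFSF13 (0 to 0.878), TNFSF18 (0 to 0.701), TNFSF12-TNFSF13 (0 to 0.224), TNFRSF14 (0 to 1.08), TNFRSF9 (0 to 0.586), TNFRSF4 (0 to 0.422), TNFRSF13C (0 to 0.422) and TNFRSF18 (0 to 0.227). TNFSF18, TNFRSF9 and TNFRSF14 were each listed at 0 in the 4 libraries without cytokines and above 0 in the 4 with them, and TNFRSF13C was above 0 only in normal hIECs. No gene was listed under the name LTBR. The identifier of the lymphotoxin beta receptor, ENSG00000111321, stood in the files under another name, and its level was 1.14 and 0.832 FPKM in normal hIECs, 1.01 and 1.28 with PM10, 1.35 and 1.46 in inflamed hIECs, and 1.44 and 1.72 with both. LTBR is not counted among the 36, and it passed the test in no comparison (adjusted p = 0.0772 for the cytokine effect without PM10, limma).

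Cytokine effects were compared in libraries without PM10 and in libraries with PM10, within the same fit. These comparisons share no library but use the same estimate of each gene's spread, so calls in both are not independent. Without PM10, 16 of the 19 tested genes passed the test, 12 higher and 4 lower in inflamed hIECs (limma on log2(FPKM + 1), adjusted p under 0.05), against 56.2% of all 14206 genes tested (25.9% higher and 30.3% lower). With PM10, 15 passed, 11 higher and 4 lower, against 65.4% of all genes (25.8% higher and 39.6% lower). The median difference over the 19 was 0.73 and 0.91 on the log2 scale, against −0.03 and −0.11 over all genes. Part of these counts follows from the filter: 6 genes (TNFSF11, TNFSF13B, TNFSF15, TNFRSF6B, TNFRSF10A and TNFRSF10C) reached 1 FPKM only with cytokines and 1 (TNFRSF8) only without, so that they had to differ. Among the 12 that reached it in both arms, 9 passed without PM10, 6 higher and 3 lower, where 53.9% of the genes so defined passed, and 8 passed with PM10, where 63.4% did. The median difference of these 12 was 0.18 and 0.12 on the log2 scale, against −0.01 and −0.09. Past a 2-fold difference on that scale, 8 of the 19 were called without PM10, 6 higher and 2 lower, where 9.18% of all genes were (4.05% higher and 5.12% lower). With PM10 these were 10, 8 higher and 2 lower, where 12.9% of all genes were (5.28% higher and 7.64% lower). Among the 12 genes that reached 1 FPKM in both arms, 4 were past 2-fold without PM10 (TNFSF10, TNFRSF11B, TNFRSF12A and TNFRSF25), where 6.73% of the genes so defined were, and 3 with PM10, where 10.4% were. Of the 19, 11 were higher in each comparison, 3 lower in each and 7 past 2-fold in each, and of the 12 these were 5, 2 and 3.

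**Figure D2:**
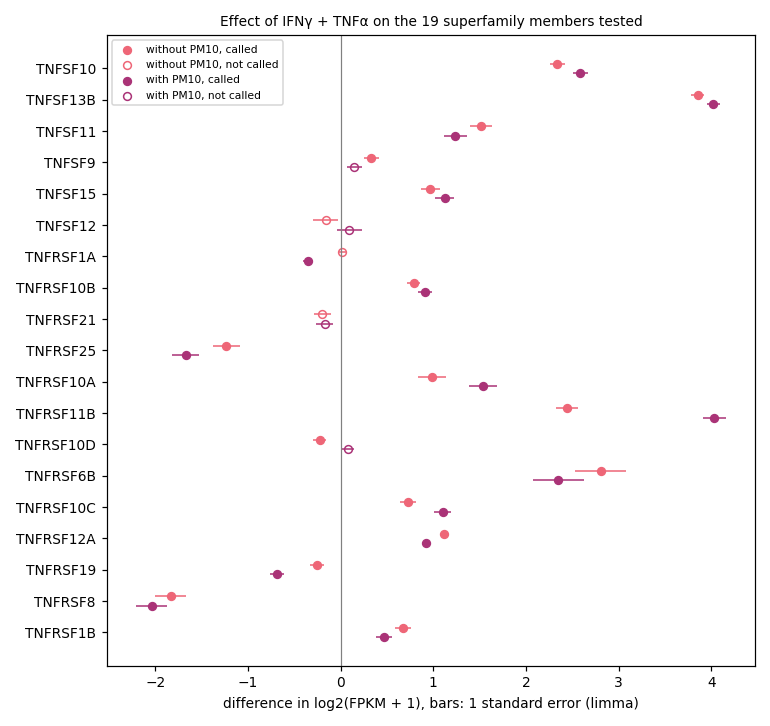
Difference in log2(FPKM + 1) between cytokine-treated and untreated hIECs for the 19 tested genes, without PM10 (inflamed minus normal) and with PM10 (inflamed with PM10 minus normal with PM10). Points are limma estimates, bars 1 standard error, and filled points have an adjusted p under 0.05. TNFSF13B, TNFRSF11B, TNFSF10 and TNFRSF6B lie farthest to the right and TNFRSF8 and TNFRSF25 farthest to the left; the position of TNFSF13B, which is listed at 0 without cytokines, depends on the pseudocount of 1.

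Among the ligands, TNFSF13B, TNFSF10, TNFSF11, TNFSF15 and TNFSF9 were higher in inflamed hIECs. TNFSF13B encodes BAFF, a survival factor of B cells (chr13:108251240-108308484, plus strand, GRCh38). It was listed at 0 in all 4 libraries without cytokines, at 13.6 and 13.3 FPKM in inflamed hIECs, and at 15.9 and 14.6 with both agents. The libraries with and without cytokines did not overlap (adjusted p = 2.82e-08 without and 1.97e-08 with PM10, limma), and no fold is given against a level of 0. TNFSF13B passed the filter through the libraries with cytokines alone, so that a difference was built in. Of its 3 receptor genes, TNFRSF13B and TNFRSF17 were listed at 0 throughout, and TNFRSF13C, the BAFF receptor, was at 0.249 and 0.422 FPKM in normal hIECs and at 0 in the other 6 libraries. TNFSF13, the related ligand APRIL, was not tested and stood at 0.878 and 0.614 FPKM in normal hIECs and 0.288 and 0.263 in inflamed hIECs.

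TNFSF10 encodes TRAIL, which can kill cells through the death receptors TNFRSF10A and TNFRSF10B (chr3:172505508-172523475, minus strand). Its level was 2.52 and 2.80 FPKM in normal hIECs, 1.31 and 1.58 with PM10, 18.4 and 16.7 in inflamed hIECs, and 13.9 and 13.4 with both. Both libraries of each group lay apart from those of every other group. The mean FPKM was 6.58-fold higher with cytokines without PM10, and the difference was 2.34 on the log2(FPKM + 1) scale (SE 0.0837, adjusted p = 7.38e-07, limma). With PM10 the mean was 9.45-fold higher, a difference of 2.59 (SE 0.0837, adjusted p = 3.48e-07).

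TNFSF11, which encodes RANKL (chr13:42562736-42608013, plus strand), was at 0.910 and 0.525 FPKM in normal hIECs, 0.683 and 0.605 with PM10, 3.66 and 4.10 in inflamed hIECs, and 3.04 and 2.73 with both. The 4 libraries with cytokines lay above the 4 without, but TNFSF11 passed the filter through the former alone, so that a difference was built in. The log2 difference was 1.51 without PM10 (SE 0.122, adjusted p = 4.37e-05) and 1.24 with PM10 (adjusted p = 8.83e-05, limma). TNFSF15 encodes TL1A, a ligand of TNFRSF25. It was at 0.670 and 0.438 FPKM in normal hIECs, 0.557 and 0.597 with PM10, 2.05 and 2.01 in inflamed hIECs, and 2.57 and 2.31 with both. Its log2 difference with cytokines was 0.97 (adjusted p = 1.58e-04) without and 1.12 (adjusted p = 5.47e-05) with PM10, again with no overlap. TNFSF15 likewise passed the filter through the libraries with cytokines alone. TNFSF9, the ligand of the costimulatory receptor TNFRSF9, rose by 0.33 on the log2 scale without PM10 (adjusted p = 0.0103), and with PM10 the difference was 0.15 (adjusted p = 0.1497). TNFSF12, which encodes TWEAK, lay between 0.660 and 1.18 FPKM in all 8 libraries and passed the test in no comparison.

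Stretches before the start sites of the ligands are shown because these genes moved with IFNγ and TNFα, which act in part through interferon regulatory factors and NF-κB. The 250 bases before each RefSeq start site (GRCh38.p14) were searched on both strands for GAAA, any 2 bases and GAAA, a form of the interferon-stimulated response element (ISRE), for TTC, any 3 bases and GAA, a form of the gamma-activated site (GAS), and for GGG, any 2 bases and TTTCC, a form of the NF-κB site. Over all 34943 windows of that length, 3.02% held the first, 6.56% the second and 1.73% the third. A window was at hand for 24 of the 36 genes, and the others were not searched. ISRE matches were found for 4 genes, GAS matches for 4 and NF-κB matches for 2. Some matches of LTA and LTB were found from 2 starts of the gene, and no 2 distinct matches of a gene overlapped. The matches of the genes described here are printed 5′ to 3′ on the gene's strand with 10 bases on each side and the match in capitals. The first line is the ISRE match of TNFSF13B, 71 bases before a RefSeq start that lies inside the annotated gene (chr13:108269637-108269666, plus strand). The second is that of TNFSF10, 187 bases before its start (chr3:172523598-172523627, minus strand). The third is that of TNFSF9, 194 bases before its start (chr19:6530822-6530851, plus strand), the fourth that of TNFRSF1B, 10 bases before its start (chr1:12166971-12167000, plus strand), and the fifth the GAS match of TNFSF11, 197 bases before its start (chr13:42562529-42562557, plus strand).
TNFSF13B: tacaaaaactGAAAGTGAAAtgaggaagac
TNFSF10: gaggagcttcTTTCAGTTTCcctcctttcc
TNFSF9: tggaaggccgGAAACGGAAAggagagcgaa
TNFRSF1B: gggcgcgggcTTTCGCTTTCagtcgagggc
TNFSF11: actcccatatTTCAAAGAAagatacttgt
All 5 of these genes were higher with cytokines without PM10, but genes were described here largely because they changed. A link between match and change was not tested. Of the 12 genes that were higher, 7 had a window that was searched, 4 of these held an ISRE match, and TNFRSF6B and TNFSF15 held no match to any of the 3 motifs. TNFRSF10A, TNFRSF10B, TNFRSF10C and TNFRSF11B were among the 12 and were left out of the search. The other 17 genes with a searched window held no ISRE match, but only 5 of them were tested. LTA and LTB, which held GAS matches, and LTB, which also held an NF-κB match, were listed at 0 in all 8 libraries. TNFRSF9 held a GAS match and an NF-κB match, the latter 74 bases before a start (chr1:7940894-7940923, minus strand), and was not tested.
TNFRSF9: gagctgtggtGGGAATTTCCcatgagaccc
Bases 250 to 51 before the start of TNFSF10 (chr3:172523481-172523680, minus strand) are shown whole, since this gene passed the test in 4 comparisons, with the same ISRE match in capitals. A match is a description of letters and not a binding site.
TNFSF10: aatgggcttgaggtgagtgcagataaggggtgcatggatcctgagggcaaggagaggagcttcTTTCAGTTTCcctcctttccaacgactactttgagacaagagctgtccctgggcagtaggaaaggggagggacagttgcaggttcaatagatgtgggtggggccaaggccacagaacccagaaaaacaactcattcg

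Of the 5 receptors with a death domain, TNFRSF10A and TNFRSF10B were higher with cytokines, TNFRSF25 was lower, and TNFRSF1A and TNFRSF21 did not pass the test without PM10. TNFRSF10B (DR5) was at 28.1 and 24.8 FPKM in normal hIECs, 31.7 and 32.4 with PM10, 48.8 and 43.97 in inflamed hIECs, and 61.9 and 60.1 with both. Each group lay apart from the others. The log2 difference with cytokines was 0.79 (SE 0.0739, adjusted p = 9.30e-05) without and 0.91 (adjusted p = 3.27e-05) with PM10. TNFRSF10A (DR4) stood much lower, at 0.253 and 0.228 FPKM in normal hIECs, 0.370 and 0 with PM10, 1.55 and 1.37 in inflamed hIECs, and 2.42 and 2.37 with both. Its log2 difference was 0.99 (adjusted p = 0.00100) and 1.54 (adjusted p = 7.72e-05), but TNFRSF10A passed the filter through the libraries with cytokines alone, so that a difference was built in. TNFRSF25 (DR3), a receptor known mainly from lymphocytes, was at 5.32 and 3.91 FPKM in normal hIECs, 6.23 and 5.30 with PM10, 1.53 and 1.22 in inflamed hIECs, and 1.27 and 0.973 with both. It fell by 1.23 on the log2 scale without PM10 (SE 0.146, adjusted p = 2.97e-04) and by 1.67 with PM10 (adjusted p = 4.64e-05), while its ligand gene TNFSF15 rose. Exons of TNFRSF10B overlap RHOBTB2, those of TNFRSF10A overlap antisense and divergent transcripts, and those of TNFRSF25 overlap ESPN, and the libraries did not keep strand.

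TNFRSF1A, the widely expressed receptor of TNF with a death domain (chr12:6328757-6342114, minus strand), was at 49.4 and 48.6 FPKM in normal hIECs, 58.8 and 63.2 with PM10, 49.3 and 50.03 in inflamed hIECs, and 48.3 and 46.8 with both. Both libraries of normal hIECs with PM10 lay above the other 6, which ran from 46.8 to 50.03. The cytokine difference was 0.02 on the log2 scale without PM10 (SE 0.0510, adjusted p = 0.774), and with PM10 the level fell by 0.35 (adjusted p = 6.53e-04). TNFRSF1B, the other TNF receptor, which lacks a death domain, was at 1.45 and 1.54, 1.66 and 1.43, 2.86 and 3.10, and 2.46 and 2.58 FPKM in the same order of groups. It rose by 0.67 without PM10 (SE 0.0836, adjusted p = 3.86e-04) and by 0.47 with PM10 (adjusted p = 0.00182). The FPKM ratio of TNFRSF1A to TNFRSF1B was 34.0 and 31.6 in normal hIECs, 35.4 and 44.2 with PM10, 17.2 and 16.1 in inflamed hIECs, and 19.6 and 18.1 with both, so the ratio was lower in each library with cytokines than in any without. TNFRSF21 (DR6) lay between 4.45 and 6.77 FPKM and passed the test in no comparison.

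Decoy and soluble receptors were higher with cytokines except for TNFRSF10D. TNFRSF11B encodes osteoprotegerin, a secreted receptor that binds both TNFSF11 and TNFSF10 (chr8:118923557-118951885, minus strand). It was at 3.10 and 2.26 FPKM in normal hIECs, 1.73 and 1.31 with PM10, 19.5 and 18.3 in inflamed hIECs, and 40.1 and 40.01 with both. The 4 groups did not overlap. The mean was 7.03-fold higher with cytokines without PM10, a log2 difference of 2.44 (SE 0.122, adjusted p = 4.08e-06), and 26.4-fold higher with PM10, a log2 difference of 4.03 (adjusted p = 2.57e-07, limma). TNFRSF6B, which encodes DcR3, a soluble decoy that binds FASLG, TNFSF14 and TNFSF15, was at 0.380 and 0 FPKM in normal hIECs, 0.757 and 0.502 with PM10, 5.27 and 9.76 in inflamed hIECs, and 6.21 and 8.51 with both. Its 2 libraries of inflamed hIECs were far apart, and the log2 difference was 2.81 without PM10 (SE 0.274, adjusted p = 1.13e-04) and 2.35 with PM10 (adjusted p = 2.09e-04). Here too the filter was passed through the libraries with cytokines alone. TNFRSF6B shares exons with ARFRP1 and with RTEL1-TNFRSF6B, a read-through gene; RTEL1-TNFRSF6B lay between 2.01 and 5.27 FPKM and was not higher with cytokines.

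TNFRSF10C and TNFRSF10D encode decoy receptors of TRAIL, the first anchored by lipid and the second with a truncated death domain. TNFRSF10C was at 0.367 and 0.269 FPKM in normal hIECs, 0.409 and 0.412 with PM10, 1.18 and 1.18 in inflamed hIECs, and 2.05 and 2.00 with both, a log2 difference of 0.73 (adjusted p = 3.55e-04) without and 1.10 (adjusted p = 3.11e-05) with PM10. TNFRSF10C passed the filter through the libraries with cytokines alone, so that a difference was built in. TNFRSF10D was at 14.99 and 13.7, 15.4 and 14.7, 11.6 and 12.6, and 16.2 and 15.9 FPKM in the same order, so that inflamed hIECs without PM10 lay under the other 6 libraries. It fell by 0.23 on the log2 scale without PM10 (SE 0.0662, adjusted p = 0.0217), and with PM10 the difference was 0.08 (adjusted p = 0.301). The fall did not pass the test without normal hIECs replicate 1 or inflamed hIECs replicate 1 (adjusted p up to 0.131). TNFRSF10A to TNFRSF10D are related in sequence and neighbours on chromosome 8, and how reads that fit more than 1 of them were shared out is not given in the sources used here.

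Of the 12 other receptors, 4 were tested. TNFRSF12A encodes Fn14, the receptor of TWEAK, which is known to be induced by growth factors and injury (chr16:3018445-3022383, plus strand). It was at 71.5 and 68.0 FPKM in normal hIECs, 89.5 and 86.7 with PM10, 153 and 153 in inflamed hIECs, and 170 and 165 with both. All 4 groups lay apart. The mean was 2.19-fold higher with cytokines without PM10, a log2 difference of 1.12 (SE 0.0460, adjusted p = 1.40e-06), and the difference with PM10 was 0.92 (adjusted p = 2.98e-06). TNFRSF12A made up 37.8% and 38.0% of the FPKM of all receptor genes here in normal hIECs, and 50.004% and 50.1% in inflamed hIECs. Its exons overlap CLDN6. TNFRSF8 encodes CD30, a marker of activated lymphocytes that undifferentiated embryonic stem cells can also express. It was at 3.06 and 4.92 FPKM in normal hIECs, 2.98 and 3.24 with PM10, 0.441 and 0.318 in inflamed hIECs, and 0 in both libraries with both agents. TNFRSF8 fell by 1.83 on the log2 scale without PM10 (SE 0.167, adjusted p = 8.16e-05) and passed the test with PM10 too (adjusted p = 3.45e-05), and its ligand gene TNFSF8 was listed at 0 throughout. TNFRSF8 passed the filter through the libraries without cytokines alone, so that a difference was built in. The pluripotency markers POU5F1, NANOG and LIN28A were listed at 0 in all 8 libraries. SOX2, the other pluripotency marker listed, was at 0.714 to 0.884 FPKM in the 4 libraries without cytokines and listed at 0 in the 4 with them, and its part in the TNFRSF8 result was not tested. TNFRSF19 (TROY), a receptor known from developing epithelium and brain, fell by 0.26 without PM10 (adjusted p = 0.0238) and by 0.68 with PM10 (adjusted p = 1.76e-04), from between 4.69 and 6.07 FPKM without cytokines to between 3.24 and 4.13 with them.

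**Figure D3:**
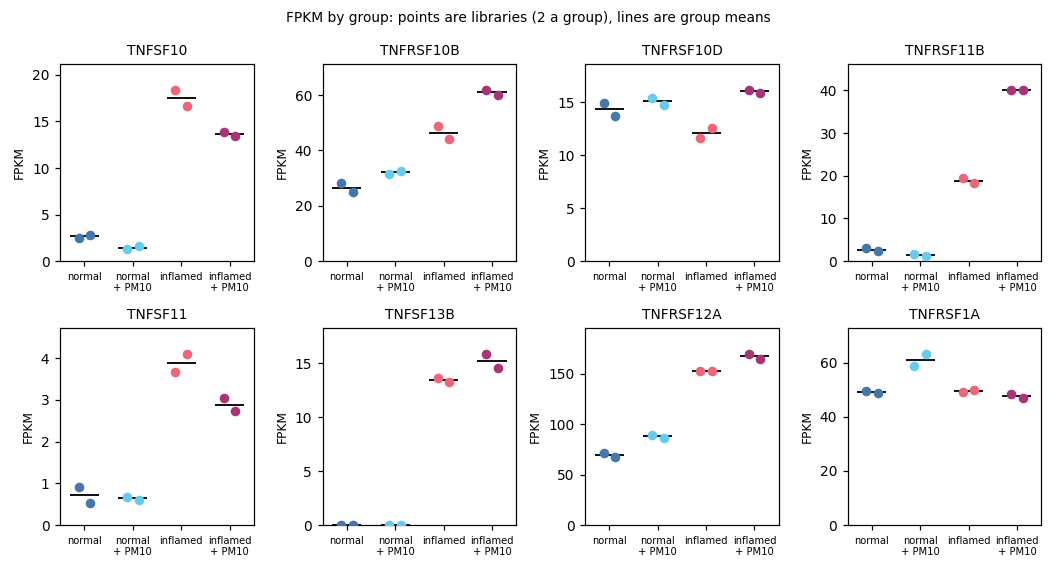
FPKM of 8 superfamily genes by group; each point is a library, horizontal lines are the means of the 2 libraries, and each vertical axis starts at 0 with its own range. TNFRSF11B reaches 40.1 and 40.01 FPKM in inflamed hIECs with PM10, TNFSF10 is lower with PM10 in both cytokine states, and TNFRSF1A is higher in normal hIECs with PM10 than in the other groups.

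With PM10 in normal hIECs, the 2 receptors with the highest levels were higher and TRAIL and osteoprotegerin were lower. Of the 19 tested, 4 passed the test, 2 higher and 2 lower, where 9.23% of all genes passed (5.51% higher and 3.72% lower), and this comparison shares its libraries with both cytokine comparisons. TNFRSF12A rose by 0.33 on the log2 scale (SE 0.0460, adjusted p = 0.00875) and TNFRSF1A by 0.31 (SE 0.0510, adjusted p = 0.0157), each with both PM10 libraries above both normal ones. TNFSF10 fell by 0.59 (SE 0.0837, adjusted p = 0.00964), a 1.85-fold lower mean FPKM, and TNFRSF11B by 0.54 (SE 0.122, adjusted p = 0.0388), a 1.76-fold lower mean. None of the 4 passed 2-fold on the log2 scale, as 0.345% of all genes did. TNFRSF10B was at 28.1 and 24.8 FPKM without and 31.7 and 32.4 with PM10, a difference of 0.27 (adjusted p = 0.0628). The call of TNFRSF11B was lost under 10 of 17 alternatives (adjusted p up to 0.176), and the calls depended on single libraries: 0 of the 19 passed without normal hIECs with PM10 replicate 1 (limma, 6 at an unadjusted p under 0.05), 1 passed without replicate 2 of that group, and 6 passed without normal hIECs replicate 1.

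In inflamed hIECs, PM10 went with higher levels of the osteoprotegerin gene and of 3 TRAIL receptors and with a lower level of TRAIL. Of the 19 tested, 5 passed the test, 4 higher and 1 lower, where 15.2% of all genes passed (6.22% higher and 9.02% lower). TNFRSF11B rose by 1.05 on the log2 scale (SE 0.122, adjusted p = 0.00241), a 2.13-fold higher mean, and was the 1 member past 2-fold (0.246% of all genes were, in that direction). TNFRSF10C rose by 0.47 (SE 0.0886, adjusted p = 0.0145), TNFRSF10B by 0.39 (SE 0.0739, adjusted p = 0.0152) and TNFRSF10D by 0.38 (SE 0.0662, adjusted p = 0.0114). TNFRSF10A was 1.64-fold higher by its means, with both PM10 libraries above both others, a log2 difference of 0.47 (SE 0.148, adjusted p = 0.0748). TNFSF10 fell by 0.34 (SE 0.0837, adjusted p = 0.0366), a call lost under 8 of 17 alternatives, among them a pseudocount of 0.1, the replicate block and each of the 4 libraries of inflamed hIECs left out (adjusted p up to 0.182). TNFSF11 was at 3.66 and 4.10 FPKM without and 3.04 and 2.73 with PM10, a difference of −0.33 (adjusted p = 0.111). TNFRSF11B passed the test under each alternative run for this comparison. Without 1 of the 2 libraries of inflamed hIECs 2 of the 19 passed, without 1 of the 2 of inflamed hIECs with PM10 only 1 did, and without 1 of the 2 of normal hIECs 9 did.

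**Figure D4:**
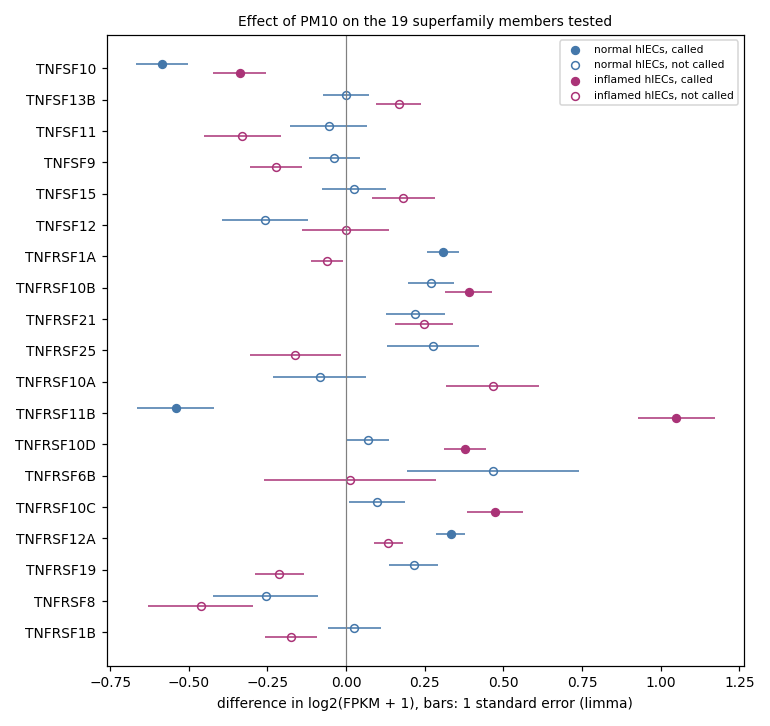
Difference in log2(FPKM + 1) with PM10 for the 19 tested genes, in normal hIECs (normal with PM10 minus normal) and in inflamed hIECs (inflamed with PM10 minus inflamed). Points are limma estimates, bars 1 standard error, and filled points have an adjusted p under 0.05. TNFRSF11B is at −0.54 in normal and at 1.05 in inflamed hIECs, and TNFSF10 is below 0 in both.

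Whether the PM10 effect differed between inflamed and normal hIECs was tested as an interaction. Of the 19 genes 2 passed, TNFRSF11B in the direction of a higher PM10 effect with cytokines and TNFRSF1A in the other, where 6.6% of all genes passed (2.11% and 4.48%). For TNFRSF11B the interaction was 1.59 on the log2 scale (SE 0.173, adjusted p = 0.00386), its level being lower with PM10 in normal hIECs and higher with PM10 in inflamed hIECs. An interaction of that sign past 2-fold was called for 0.451% of all genes. For TNFRSF1A it was −0.37 (SE 0.0721, adjusted p = 0.0298), since the level rose with PM10 in normal hIECs and the difference was −0.06 in inflamed hIECs (adjusted p = 0.445). The latter call was lost without any 1 of the 6 libraries other than normal hIECs, with adjusted p up to 0.110. For TNFSF10 the interaction was 0.25 (adjusted p = 0.263), for TNFRSF10D 0.31 (adjusted p = 0.101), for TNFRSF10C 0.37 (adjusted p = 0.128) and for TNFRSF10B 0.12 (adjusted p = 0.537). Among cell type markers, CD68, which macrophages express strongly, was also higher with PM10 in inflamed hIECs, at 1.11 and 1.83 against 0.399 and 0.333 FPKM. The 8 immune markers together summed to these same values, so the others were listed at 0 in these libraries. PM10 in inflamed hIECs called 6 of the 10 mesenchymal markers, 1 higher and 5 lower. Over all genes 15.2% passed there (6.22% higher and 9.02% lower). The interaction called 7 of the 10, 3 with a positive and 4 with a negative sign, where 6.6% of all genes passed.

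Ligand and receptor levels were set side by side within each library. The ratio of TNFRSF11B to TNFSF11, osteoprotegerin to RANKL, was 3.41 and 4.29 in normal hIECs, 2.54 and 2.16 with PM10, 5.32 and 4.45 in inflamed hIECs, and 13.2 and 14.7 with both. No group overlapped another. The signaling receptors of TRAIL, TNFRSF10A and TNFRSF10B, summed to 28.4 and 25.0 FPKM, 32.0 and 32.4, 50.3 and 45.3, and 64.3 and 62.4 in the same order. Its decoy and soluble receptors, TNFRSF10C, TNFRSF10D and TNFRSF11B, summed to 18.5 and 16.2, 17.6 and 16.5, 32.3 and 32.0, and 58.4 and 57.9 FPKM. Decoy and soluble receptors were therefore 0.651 and 0.648 times the signaling receptors in normal hIECs, 0.549 and 0.508 times with PM10, 0.641 and 0.707 times in inflamed hIECs, and 0.907 and 0.928 times in inflamed hIECs with PM10. In both groups with cytokines most of the decoy sum was TNFRSF11B. With 2 libraries a group an exact two-sided permutation test of such a ratio cannot go below p = 0.333.

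Other genes of the superfamily have names outside the rule, and 11 were listed for comparison: FAS, FASLG, CD40, CD40LG, CD27, CD70, NGFR, EDA, EDAR, EDA2R and RELT. The ligand genes FASLG and CD40LG and the receptor gene EDAR were listed at 0 in all 8 libraries, and 6 genes were tested. Cytokines without PM10 called 5 of the 6, with 4 higher and 1 lower, where 56.2% of all genes were called. FAS, a death domain receptor, was at 1.59 and 1.19 FPKM in normal hIECs and 7.59 and 7.56 in inflamed hIECs, a log2 difference of 1.85 (adjusted p = 1.28e-05). CD40, which TRAF adaptors bind, rose by 1.46 (adjusted p = 1.89e-06), the ligand gene CD70 by 1.13 (adjusted p = 1.05e-04) and EDA2R, a receptor of ectodysplasin A2, by 1.06 (adjusted p = 3.44e-05). NGFR, the p75 neurotrophin receptor, was at 4.14 and 4.03 FPKM in normal hIECs, 3.02 and 3.05 with PM10, 1.27 and 1.07 in inflamed hIECs, and 0.354 and 0.401 with both. NGFR fell by 1.23 with cytokines (adjusted p = 1.72e-05), and with PM10 it fell by 0.65 in inflamed hIECs (adjusted p = 0.00320). In normal hIECs its difference with PM10 was −0.33 (adjusted p = 0.0481), a call lost under 12 of 16 alternatives (adjusted p up to 0.185). CD70 fell by 0.42 with PM10 in inflamed hIECs (adjusted p = 0.0428, lost under 9 of 17 alternatives with adjusted p up to 0.175), from 29.97 and 31.6 to 22.7 and 22.9 FPKM. Cytokines with PM10 also called 5 of the 6, 4 higher and 1 lower, where 65.4% of all genes were called. PM10 called 2 in normal hIECs (9.23% of all genes) and 2 in inflamed hIECs (15.2%), and the interaction called 0 (limma, 2 at an unadjusted p under 0.05), where 6.6% of all genes were called. The 2 in normal hIECs were NGFR and EDA2R, and neither was called when any 1 of the 8 libraries was left out (limma, 2 at an unadjusted p under 0.05 each time).

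Genes that act downstream of the receptors were taken as a list of 41 adaptors, kinases, ubiquitin enzymes, NF-κB subunits and inhibitors, and shedding enzymes, of which 40 were tested. Cytokines without PM10 called 30, 27 higher and 3 lower, and 13 of the higher genes were past 2-fold. That was 75% of the 40, where 56.2% of all genes were called (25.9% higher and 30.3% lower) and 4.05% were higher past 2-fold. The counts of this list were not split by the filter as those of the members were. A gene such as BIRC3, which reached 1 FPKM only with cytokines, had to differ in both cytokine comparisons. The means of RHBDF2, TRAF1 and CFLAR in normal hIECs were also under 1 FPKM (0.465, 0.285 and 0.893). Part of their cytokine differences may therefore be built in by the filter too. The 3 lower genes were RNF31, TRAF5 and SHARPIN. TNFAIP3 (A20), an enzyme that edits ubiquitin and restrains NF-κB, was at 4.13 and 4.08 FPKM in normal hIECs, 4.76 and 4.82 with PM10, 30.7 and 30.3 in inflamed hIECs, and 37.6 and 42.4 with both. RHBDF2 (iRhom2), which carries the TNF-shedding protease ADAM17 to the cell surface, was at 0.370 and 0.559 FPKM in normal and 6.68 and 7.45 in inflamed hIECs. These 2 genes rose by 2.63 (adjusted p = 1.28e-07) and 2.46 (adjusted p = 2.59e-06) on the log2 scale, and ADAM17 itself did not pass the test. BIRC3 (cIAP2), a ubiquitin ligase bound to TRAF2, was listed at 0 in the 4 libraries without cytokines and was at 4.05 and 3.92 FPKM in inflamed hIECs and 5.98 and 6.20 with both. The NF-κB inhibitors NFKBIA and NFKBIE rose by 2.09 and 1.95 and the subunit NFKB1 by 1.84. With PM10, cytokines called 28, 23 higher and 5 lower, or 70% where 65.4% of all genes were called (25.8% higher and 39.6% lower). There TRAF1, an adaptor, rose by 1.87 (adjusted p = 9.88e-06) and CFLAR, an inhibitor of CASP8, by 1.80 (adjusted p = 6.35e-05). The median difference of the 40 was 0.43 in each cytokine comparison, against −0.03 and −0.11 over all genes.

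PM10 in inflamed hIECs called 5 of the 40 downstream genes, or 12.5% where 15.2% of all genes were called, so the share was no higher than over all genes. The 5 were CYLD, RHBDF2, TNIP1, BIRC3 and TNFAIP3, all of them higher, as 6.22% of all genes were. TNIP1, a partner of A20, was at 38.5 and 40.7 FPKM without and 57.4 and 58.6 with PM10, a log2 difference of 0.54 (SE 0.0565, adjusted p = 0.00162). CYLD, a deubiquitinase, was at 7.60 and 8.24 without and 13.3 and 16.4 with PM10, a difference of 0.82 (SE 0.146, adjusted p = 0.0122). BIRC3 rose by 0.51 (adjusted p = 0.00709), RHBDF2 by 0.56 (adjusted p = 0.0193) and TNFAIP3 by 0.38 (adjusted p = 0.0112). In normal hIECs PM10 called 4, or 10% where 9.23% of all genes were called, all higher: NFKBIE (0.34), NFKB1 (0.32), RIPK1 (0.32) and TRAF4 (0.27), with adjusted p between 0.0212 and 0.0388. The 4 calls were lost without any 1 of 5 libraries (normal hIECs replicate 2 and all 4 with PM10), and 0 of the 40 passed there (limma, 6 to 11 at an unadjusted p under 0.05). The interaction called 4, or 10% where 6.6% of all genes were called: CYLD (0.95), BIRC3 (0.51) and TNIP1 (0.38) with a larger PM10 difference in inflamed hIECs, and TRAF4 (−0.43) with a smaller one. The interaction called 0 of the 40 without any 1 of the 6 libraries other than normal hIECs (limma, 8 to 10 at an unadjusted p under 0.05) and 0 with no filter on the level (12 unadjusted).

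**Figure D5:**
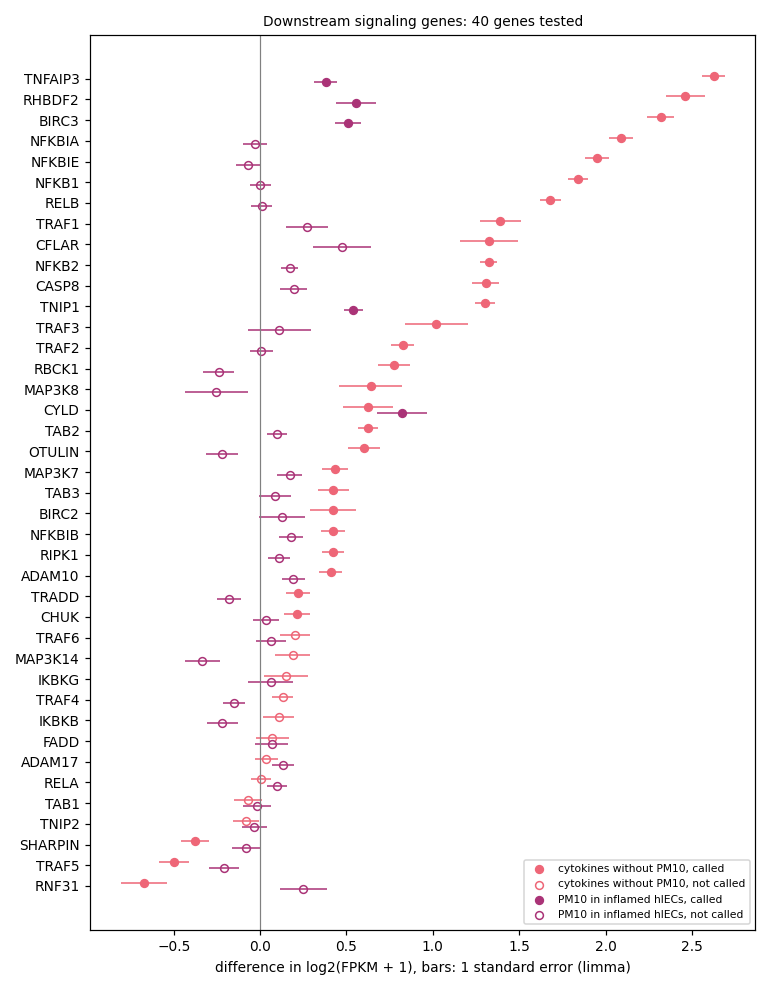
Difference in log2(FPKM + 1) for the 40 downstream genes tested, for cytokines without PM10 and for PM10 in inflamed hIECs, ordered by the cytokine difference. Points are limma estimates, bars 1 standard error, and filled points have an adjusted p under 0.05. TNFAIP3, RHBDF2 and BIRC3 lead the cytokine differences, and the 5 filled PM10 points are CYLD, RHBDF2, TNIP1, BIRC3 and TNFAIP3.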

How the data were processed

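Poly-A RNA of 8 libraries was sequenced in pairs without strand information. The authors trimmed reads with Cutadapt and Sickle, aligned them to GRCh38/hg38 with HISAT2 and deposited StringTie FPKM values per gene; the annotation release and read counts are not given in the sources used here. FPKM were used as deposited, with no further scaling. Depth cannot be given as reads; the lowest FPKM above 0 was 0.164 to 0.228.

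Here, genes that reached 1 FPKM in 2 or more libraries (14206 of 60558) were fitted as log2(FPKM + 1) with limma 3.58.1 (R 4.3.3, trended variance, all 8 libraries, 4 groups of 2), a scale that understates the changes of low genes, and p-values were adjusted by Benjamini-Hochberg over all genes in each of 5 comparisons. Calls had an adjusted p under 0.05. The script was tested on simulated data. Positions and exon overlaps came from GENCODE 44 and promoter windows from RefSeq.

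The members, the lists and the rule for named genes were chosen with earlier results of these data known. Values in every library were given for members called and past 2-fold somewhere, for TNF, its receptors and LTBR, and for their ligand or receptor partners; from the other lists up to 6 called genes a comparison were named. RNF31, TRAF5, SHARPIN, ADAM17 and CD68 were named after their values were seen. Alternatives were another pseudocount, 2 other filters, 2 scalings, protein-coding genes only, only the groups compared, no variance trend, the replicate block and each library left out.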

Additional observations from a re-analysis of the deposited data

Results flagged for a closer look

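TNFRSF11B and TNFRSF1A differed in their PM10 effect between inflamed and normal hIECs by the interaction test. For TNFRSF11B the interaction was 1.59 on the log2(FPKM + 1) scale, and under the alternatives run it ranged from 1.42 to 1.86 with adjusted p from 0.00154 to 0.0262 (limma). For TNFRSF1A it was −0.37, from −0.42 to −0.32 under the alternatives, with adjusted p from 0.0204 to 0.110 and the call lost in 7 of 16. Groups of 2 libraries are too small for a test of single libraries that stand apart.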

How the results depend on the processing

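None of the 127 called differences of members, signaling genes and superfamily genes outside the rule changed sign under any alternative that could be fitted for it. When the fit held only the 2 groups in question, PM10 in normal hIECs called 0 members (limma, 5 at an unadjusted p under 0.05) and 0 signaling genes (7 unadjusted), and PM10 in inflamed hIECs called 8 members. With a mean of at least 5 FPKM, under which only 8 members and 30 signaling genes were tested, cytokines called 6 members without and 6 with PM10, and PM10 in inflamed hIECs called 3 signaling genes. A pseudocount of 0.1 left 3 signaling genes there. For the interaction, no variance trend left 1 member and 1 signaling gene, and no filter on the level left 0 signaling genes (12 unadjusted); the cause was not tested.

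Leaving out single libraries gave 0 to 6 members for PM10 in normal hIECs, 14 to 16 for cytokines without PM10, 15 in each case with PM10, 1 to 9 for PM10 in inflamed hIECs and 1 to 3 for the interaction, and for signaling genes 0 to 7, 26 to 32, 22 to 29, 1 to 8 and 0 to 4. Among signaling genes, PM10 in normal hIECs called 7 without normal hIECs replicate 1, 0 without normal hIECs replicate 2 or either library of normal or inflamed hIECs with PM10 (6 to 11 unadjusted), and 2 without either of inflamed hIECs. PM10 in inflamed hIECs called 8 without either replicate of normal hIECs, 2 without inflamed hIECs replicate 1, 1 without replicate 2 and 2 without inflamed hIECs with PM10 replicate 2. The interaction called 0 without any 1 of the 6 libraries other than normal hIECs (8 to 10 unadjusted). A lone library is assumed to vary like the other groups.

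Of the 16 named members tested, 13 of 14 calls for cytokines without PM10 and 14 of 14 with PM10 held under each alternative, against 0 of 4 for PM10 in normal hIECs, 1 of 5 for PM10 in inflamed hIECs and 1 of 2 for the interaction. Most named members were chosen for being called and past 2-fold in these data. Outside them, the calls of TNFSF9 and TNFRSF19 for cytokines without PM10 were lost under 1 and 3 of 16 alternatives. The replicate numbers share only a number: differences between replicates correlated at −0.002 to 0.079 between groups. With the replicate block the members called were 4, 16, 15, 4 and 2 in the 5 comparisons, and the interaction called 1 signaling gene.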
